A study of Mus musculus with 24 samples.

Results

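Gastrocnemius muscle of mice that lack both functional Cmah and dystrophin (Cmah KO mdx) was set against gastrocnemius of wild-type (WT) mice. The comparison takes 6 of the 24 arrays of the study, 3 of Cmah KO mdx and 3 of WT muscle, chosen by tissue and genotype as their titles state them and by no measured value. All animals were males aged 2 months. The Cmah KO mdx mice carried the Cmah knockout and the mdx allele of the dystrophin gene and are labelled with strain C57BL6/10J. The mdx mice are labelled with the same strain, while the Cmah KO mice and the WT mice are labelled C57BL/6J. Strain label and loss of dystrophin therefore cannot be told apart in the comparison with WT. The other 6 gastrocnemius arrays, 3 of mdx and 3 of Cmah KO muscle, entered the same fit, and the hearts of the same 12 animals gave the remaining 12 arrays. RNA from each muscle was amplified, labelled with biotin and hybridised to an Affymetrix mouse expression array, which reports 1 intensity per probe set, a group of short probes against a transcript. Levels below are log2 of the deposited intensities, so a difference of 1 means a 2-fold change. With whole muscle as the sample, fewer cells of a type and less RNA per cell cannot be told apart.

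Dystrophin links the cytoskeleton of a muscle fibre through a glycoprotein complex to the surrounding matrix, and mdx mice carry a premature stop codon in its gene, Dmd. Their limb muscle goes through rounds of fibre death, entry of macrophages and other white cells, and repair by satellite cells, which divide, fuse and form new fibres that make developmental myosins for a time. Cmah hydroxylates the sialic acid N-acetylneuraminic acid, in its activated form, to N-glycolylneuraminic acid. Humans lack a working CMAH, and the double mutant mouse was made as a model closer to human dystrophin deficiency.

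The labelled tissue was borne out by its markers: all 14 muscle identity genes were bright, with list means of 13.16, 13.23 and 13.33 in the Cmah KO mdx arrays and 13.36, 13.28 and 13.28 in the WT arrays. Some arrays stood apart from the others of their group. WT array 1 carried lymphocyte transcripts, with the B cell antigen gene Ms4a1 at 10.29 against at most 3.25 in the other 5 arrays, and its adipocyte list mean was 10.25 against 7.82 to 8.93. Cmah KO mdx array 1 and WT array 3 carried transcripts of heart, with the atrial and ventricular myosin gene Myh6 at 8.99 and 10.11 against 4.37 to 5.66 in the other 4. Of the 6, the same 2 arrays had the largest 3′ minus 5′ differences of the Gapdh control probe sets, a measure of RNA integrity. These were 0.97 and 0.82 against 0.39 to 0.54 on the log2 scale. The 2 arrays correlated better with each other (r = 0.94 over probe sets) than either did with the arrays of its own group. The other groups of the fit held similar arrays, with Gapdh differences of 1.02 in Cmah KO array 1 and 0.76 and 0.71 in mdx arrays 1 and 2. The BioB control probe sets averaged 11.55 in Cmah KO mdx array 1, 11.69 in WT array 3, 11.31 in Cmah KO array 1 and 11.29 in mdx array 1. In the other gastrocnemius arrays they averaged 9.36 to 10.60, and the cause was not tested.

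**Figure D1:**
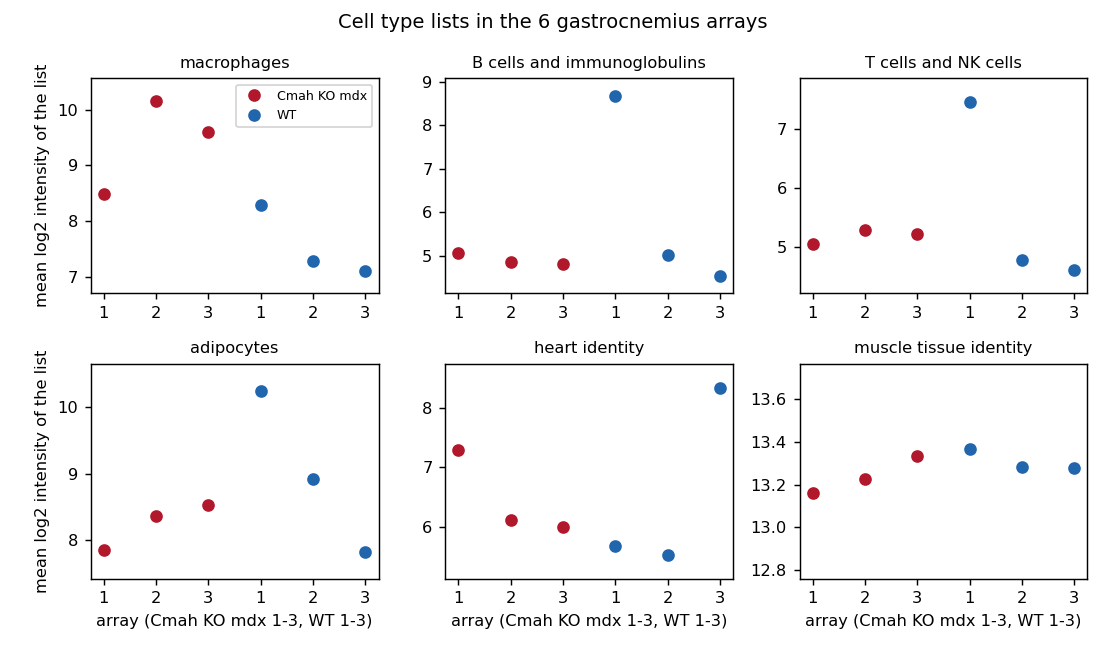
Mean log2 intensity of 6 cell type lists (y axis, a separate scale in each panel) in the 3 Cmah KO mdx arrays (red, left) and the 3 WT arrays (blue, right); each point is 1 array. WT array 1 is far above the other arrays for the B cell and T cell lists, Cmah KO mdx array 1 and WT array 3 are highest for the heart list, and the muscle list lies between 13.16 and 13.36 in all 6.

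The targeted genes were read first. On 1 Dmd probe set the levels were 8.57, 8.44 and 7.54 in Cmah KO mdx muscle and 10.26, 10.06 and 10.17 in WT muscle. The groups did not overlap, and the difference was -1.98 ± 0.31 (SE, n = 3 each), which missed the threshold after adjustment over all probe sets (limma, adjusted p = 0.063). A second Dmd probe set differed by -1.97 ± 0.34, with adjusted p = 0.082. The 2 others tested did not show the fall. They were less bright, with WT means of 5.4 and 5.2, and differed by 0.39 and -0.03. Dmd averaged 8.37 in mdx and 10.15 in Cmah KO muscle on the first probe set, so it was low in both groups with the mdx allele. Cmah was at 8.11, 6.93 and 6.46 in Cmah KO mdx muscle and at 7.89, 6.98 and 7.28 in WT muscle, overlapping groups with a difference of -0.22 ± 0.52. Where the Cmah probe set lies relative to the disrupted part of the gene is not given in the sources used here, so its level does not check the knockout. Utrn, the autosomal relative of dystrophin, was at 11.37, 11.16 and 11.42 in Cmah KO mdx muscle and at 11.42, 11.43 and 11.41 in WT muscle, a difference of -0.10 ± 0.24.

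Of 29518 probe sets tested in gastrocnemius, 5 (0.0169%) passed an adjusted p of 0.05, with 2 (0.00678%) higher and 3 (0.0102%) lower in Cmah KO mdx muscle. The embryonic myosin heavy chain Myh3 and the presynaptic scaffold gene Pclo rose. The cadherin gene Cdh4, the phosphatase gene Dusp26 and 1 probe set of Ctsl, the gene of the lysosomal protease cathepsin L, fell. Without adjustment, 1831 probe sets (6.2%) had a p below 0.05, 1383 of them higher (4.69%) and 448 lower (1.52%), where 1476 would lie there if p-values were evenly spread.

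Myh3 was at 10.13, 11.59 and 11.29 in Cmah KO mdx muscle and at 7.61, 7.54 and 7.34 in WT muscle. Every Cmah KO mdx array was above every WT array, and the difference was 3.51 ± 0.40 (adjusted p = 0.016), or 11.4-fold. Cdh4, also called R-cadherin, a cell adhesion protein, was at 5.14, 4.95 and 5.45 in Cmah KO mdx muscle and at 7.78, 8.10 and 7.79 in WT muscle. The difference of -2.71 ± 0.27 (adjusted p = 0.012) was the one with the smallest p, and the other 2 Cdh4 probe sets differed by -2.43 and -0.80 without passing. Dusp26, a dual specificity phosphatase, was at 6.95, 5.60 and 6.65 in Cmah KO mdx muscle and at 9.80, 9.92 and 9.71 in WT muscle. The groups were separate, with a difference of -3.41 ± 0.40 (adjusted p = 0.016).

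Pclo encodes piccolo, a protein of the presynaptic active zone. It was at 5.54, 5.59 and 5.86 in Cmah KO mdx muscle and at 3.60, 3.35 and 3.32 in WT muscle, a difference of 2.24 ± 0.29 (adjusted p = 0.033). The WT levels lie below 4.66, the 40th percentile over the 12 gastrocnemius arrays, and with dim values raised to that percentile the difference was 1.01 and no longer passed. The Ctsl probe set was at 4.45, 3.73 and 3.82 in Cmah KO mdx muscle and at 7.91, 7.65 and 7.50 in WT muscle, a difference of -3.69 ± 0.40 (adjusted p = 0.016) against Cmah KO mdx levels in the same dim range. A second and brighter Ctsl probe set ran the other way, with means of 11.70 in Cmah KO mdx and 10.70 in WT muscle and a difference of 1.00 ± 0.65 that did not pass, so the fall was measured on 1 probe set and not on the other. Short of the threshold, Ahnak2 differed by 2.18 ± 0.32 (limma, adjusted p = 0.059). A Fut10 probe set differed by -2.00 ± 0.30 (adjusted p = 0.059). Its means were 3.96 (dim) in Cmah KO mdx, 5.70 in mdx, 6.44 in Cmah KO and 5.96 in WT muscle. Other Fut10 probe sets differed by -2.06 and 0.10. The gene 0610040J01Rik differed by -1.82 ± 0.29 (adjusted p = 0.066). A Pisd-ps3 probe set differed by -1.47 ± 0.28 (adjusted p = 0.12), and the brightest one by -0.14.

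**Figure D2:**
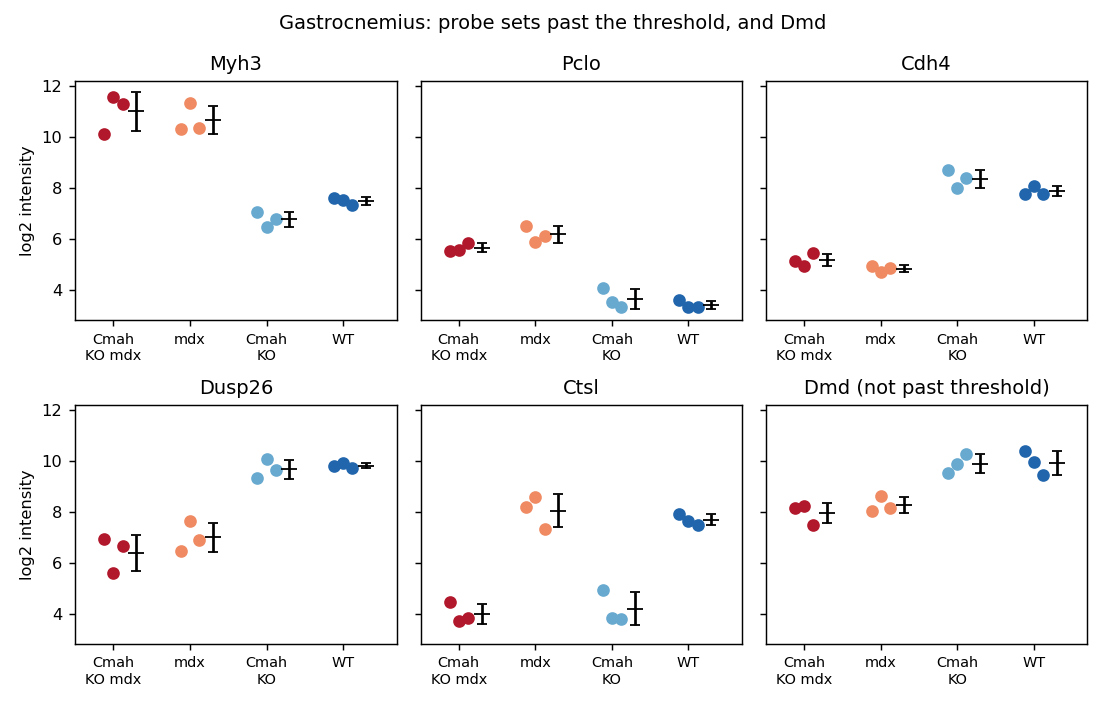
Log2 intensity (y axis) of the 5 probe sets past the threshold and of Dmd in the 12 gastrocnemius arrays, with groups from left to right Cmah KO mdx, mdx, Cmah KO and WT. Points are arrays, and the black bars give the mean and SD of 3; the Ctsl probe set is low in both groups with the Cmah knockout, and the other 5 panels differ between groups with and without the mdx allele.

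The 5 calls rest on few arrays. Without Cmah KO mdx array 2, Cmah KO mdx array 3 or WT array 2, the same limma fit called 0 probe sets, with 1185, 1351 and 1641 at an unadjusted p below 0.05. Without Cmah KO mdx array 1 it called 36, all 5 among them. Without WT array 1 it called 7, but only 3 of the 5 remained: Pclo (adjusted p = 0.070) and Dusp26 (adjusted p = 0.058) lost their calls. Without WT array 3 it called 6, and only Cdh4 and Ctsl of the 5 remained: Myh3 (adjusted p = 0.051), Dusp26 (adjusted p = 0.051) and Pclo (adjusted p = 0.097) lost theirs. Scaling shifted the balance of directions: arrays centred on their median gave 16 higher and 6 lower, and quantile normalization 3 and 3. The sizes moved less than the calls: over these 6 fits and the 13 other settings that were run, wherever the probe set was tested, the difference ranged from 3.22 to 3.95 for Myh3, from -2.85 to -2.60 for Cdh4, from -3.74 to -3.01 for Dusp26, from -4.00 to -3.03 for Ctsl and from 1.01 to 2.33 for Pclo.

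**Figure D3:**
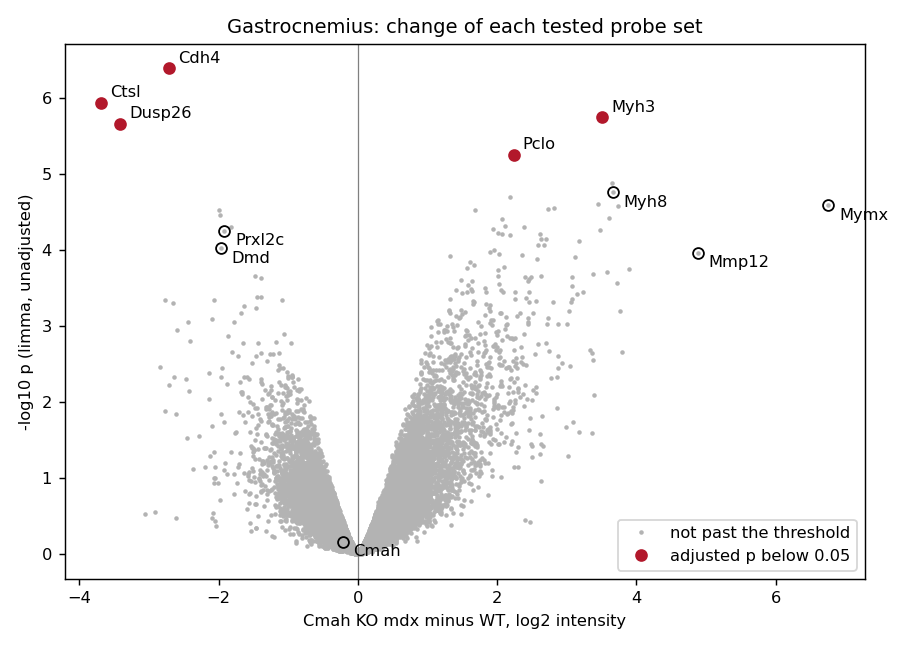
Difference of Cmah KO mdx minus WT gastrocnemius (x axis, log2 intensity) against the unadjusted limma p as -log10 (y axis) for 29518 probe sets. Red points are the 5 past an adjusted p of 0.05, open circles mark named genes that did not pass, and more points with a small p lie on the right (1383 higher) than on the left (448 lower).

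The gene lists below and their members were chosen with earlier results of these data known. Their counts and medians therefore describe the data and are not tests. The groups of genes below were read from the brightest probe set of each gene on average, whether or not it passed the filter on dim values. Over all 18193 such genes the median difference was 0.00. The 2 groups did not overlap with Cmah KO mdx higher for 6.07% and with Cmah KO mdx lower for 3.62% of these genes, and 50.2% had the higher mean in Cmah KO mdx muscle.

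Of 14 genes of developing muscle, 12 were higher on average in Cmah KO mdx muscle, 7 without overlap, and the median difference was 1.74; Myh3 alone passed the test. The range of the median when any 1 of the 6 arrays was left out was 1.45 to 2.07. Myh8, the perinatal myosin heavy chain, was at 8.58, 8.96 and 9.93 in Cmah KO mdx muscle and at 5.11, 5.02 and 6.37 in WT muscle, a difference of 3.66 ± 0.53 (adjusted p = 0.059). Myl4, the embryonic and atrial myosin light chain, was at 11.66, 12.26 and 12.86 in Cmah KO mdx muscle and at 9.49, 10.00 and 9.12 in WT muscle, a difference of 2.72 ± 0.41 (adjusted p = 0.059). The groups were separate for both. Chrng, the fetal subunit of the acetylcholine receptor, was at 7.24, 8.02 and 8.40 in Cmah KO mdx muscle and at 4.66, 5.52 and 5.58 in WT muscle, and its difference was 2.63 ± 0.44 (adjusted p = 0.071). Chrna1, the receptor's alpha subunit, was at 9.39, 11.39 and 11.10 in Cmah KO mdx muscle and at 8.54, 8.30 and 8.16 in WT muscle, again without overlap. Cardiac troponin T, Tnnt2, which embryonic muscle also makes, was at 11.60, 11.14 and 10.29 in Cmah KO mdx muscle and at 6.77, 5.54 and 10.62 in WT muscle. The groups overlapped. The highest value of each group, 11.60 and 10.62, came from Cmah KO mdx array 1 and WT array 3, the arrays where heart transcripts were present.

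The promoters of 4 of these genes are shown because myogenic factors such as MyoD and myogenin act through the E-box, whose letters are CANNTG. Each sequence runs from 250 bases before to 50 bases after the start of the gene in RefSeq (build GRCm38.p6), in the direction of transcription, with E-boxes in capitals. The positions are chr11:67078050-67078349 on the plus strand for Myh3, chr11:67276874-67277173 on the plus strand for Myh8, chr1:87205561-87205860 on the plus strand for Chrng and chr2:73580289-73580588 on the minus strand for Chrna1.
Myh3: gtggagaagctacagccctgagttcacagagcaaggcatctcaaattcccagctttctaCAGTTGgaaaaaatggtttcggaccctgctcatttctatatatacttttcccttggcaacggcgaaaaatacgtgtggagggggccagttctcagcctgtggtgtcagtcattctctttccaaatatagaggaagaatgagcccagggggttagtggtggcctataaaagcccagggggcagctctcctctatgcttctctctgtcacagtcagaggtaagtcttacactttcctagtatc
Myh8: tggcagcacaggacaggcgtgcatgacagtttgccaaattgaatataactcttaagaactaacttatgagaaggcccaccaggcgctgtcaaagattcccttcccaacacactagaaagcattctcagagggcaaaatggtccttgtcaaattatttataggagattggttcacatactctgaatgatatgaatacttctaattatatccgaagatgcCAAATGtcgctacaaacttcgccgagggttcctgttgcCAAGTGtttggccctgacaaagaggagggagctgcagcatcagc
Chrng: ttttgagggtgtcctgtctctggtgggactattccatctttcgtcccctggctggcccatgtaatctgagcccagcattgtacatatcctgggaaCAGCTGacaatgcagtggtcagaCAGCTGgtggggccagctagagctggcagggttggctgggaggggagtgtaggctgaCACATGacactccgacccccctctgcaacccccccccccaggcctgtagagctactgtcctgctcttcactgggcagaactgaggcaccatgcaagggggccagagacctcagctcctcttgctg
Chrna1: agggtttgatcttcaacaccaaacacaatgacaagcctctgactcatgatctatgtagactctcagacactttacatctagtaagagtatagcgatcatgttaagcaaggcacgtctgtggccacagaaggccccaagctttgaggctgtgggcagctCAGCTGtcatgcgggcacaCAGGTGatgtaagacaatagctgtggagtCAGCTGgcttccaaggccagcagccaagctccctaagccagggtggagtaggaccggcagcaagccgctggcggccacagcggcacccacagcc
The motif reads as CANNTG on both strands, and 72.3% of 32851 promoters of this length hold it. The Myh3 window holds 1, starting 191 bases before the gene's start, and the Myh8 window holds 2. The windows of Chrng and Chrna1 hold 3 each, and in each 2 of them have the letters CAGCTG, which 16.3% of all promoters hold. No match is a measured site, and the table gives no binding.

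Among 22 myogenic regulators and fusion genes, 17 were higher on average in Cmah KO mdx muscle, 6 without overlap, none passed the test and the median was 0.48, or 0.28 without WT array 3. The 2 fusion proteins of myoblasts differed more than the regulators. Mymx (myomixer) was at 9.39, 11.32 and 10.60 in Cmah KO mdx muscle and at 3.25, 5.20 and 2.59 in WT muscle, a difference of 6.76 ± 1.01 (adjusted p = 0.059). Mymk (myomaker) was at 6.50, 8.46 and 8.31 in Cmah KO mdx muscle and at 4.23, 4.86 and 3.75 in WT muscle, a difference of 3.48 ± 0.56 (adjusted p = 0.066). Neither gene's groups overlapped, and the mean WT levels of both were in the dim range below the 40th percentile. Myog, the differentiation factor myogenin, was at 9.81, 11.43 and 11.37 in Cmah KO mdx muscle and at 8.20, 9.91 and 7.97 in WT muscle, where WT array 2 lay above Cmah KO mdx array 1. Pax7, the marker of satellite cells, overlapped with a difference of 0.69.

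All 27 macrophage genes on the array had the higher mean in Cmah KO mdx muscle, 14 without overlap, and the median of 1.89 was the highest of the 41 lists; no member passed the test. Leaving out 1 array gave medians from 1.52 to 2.40. The list mean was 8.49, 10.16 and 9.60 in the Cmah KO mdx arrays and 8.30, 7.28 and 7.11 in the WT arrays, so Cmah KO mdx array 1 was close to WT array 1. Mpeg1, the pore-forming perforin-2 of macrophages, was at 10.25, 11.35 and 10.38 in Cmah KO mdx muscle and at 9.12, 6.57 and 7.07 in WT muscle, a difference of 3.07 ± 0.61 (adjusted p = 0.13). Ms4a7, a membrane protein of macrophages, differed by 3.23 ± 0.65 without overlap (adjusted p = 0.14).

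The list of genes that phagocytes make in injured tissue, chosen like the others with earlier results known, held some of the largest differences. Gpnmb, a glycoprotein of phagocytes and lysosomes, was at 9.28, 11.32 and 10.52 in Cmah KO mdx muscle and at 7.21, 7.06 and 5.63 in WT muscle, a difference of 3.74 ± 0.56 (adjusted p = 0.059). Lgals3, the galactose-binding lectin galectin-3, was at 11.16, 12.30 and 11.99 in Cmah KO mdx muscle and at 9.30, 8.54 and 7.24 in WT muscle, a difference of 3.45 ± 0.52 (adjusted p = 0.059). Mmp12, macrophage elastase, differed by 4.88 ± 0.85 (adjusted p = 0.086) from a WT mean of 4.10 in the dim range, and was lowest of the Cmah KO mdx arrays in array 1, at 7.18. In each of these 3 genes every Cmah KO mdx array was above every WT array. Over the 15 genes of this list, 12 were higher and the median was 1.32, which ran from 0.75 without WT array 3 to 2.05 without Cmah KO mdx array 1. Other inflammatory lists had the same direction with no call: 24 of 25 chemokines and cytokines (median 0.86), 15 of 15 lysosomal genes (0.74), 18 of 18 interferon response genes (0.70) and 13 of 15 complement genes (0.60) had the higher mean in Cmah KO mdx muscle. Leaving out 1 array moved these medians widely: from 0.31 (without Cmah KO mdx array 2) to 1.01 (without Cmah KO mdx array 1) for interferon response, from 0.36 (without WT array 3) to 1.15 (without WT array 1) for complement, and from 0.44 (without WT array 3) to 0.92 (without WT array 1) for the lysosome. For class II antigen presentation the median of 0.52 became -0.12 without WT array 3 and 1.30 without WT array 1.

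Cell cycle genes and matrix proteases had the next largest medians. Of 31 cell cycle genes, 30 had the higher mean in Cmah KO mdx muscle, 18 without overlap, and the median was 1.23 (0.81 without Cmah KO mdx array 2 to 1.55 without Cmah KO mdx array 1), again with no call. Cdca5 (sororin, which holds sister chromatids together) was at 7.62, 7.15 and 5.89 in Cmah KO mdx muscle and at 4.64, 4.09 and 2.59 in WT muscle, a difference of 3.12 ± 0.55 (adjusted p = 0.088) with a dim WT mean of 3.77. E2f8, a transcription factor of the cell cycle, differed by 2.82 ± 0.43 (adjusted p = 0.059) and E2f2 by 2.56 ± 0.46 (adjusted p = 0.092), both without overlap. Of 21 matrix proteases and inhibitors, 19 were higher with a median of 1.15, and Mmp14, a membrane-bound collagenase, differed by 1.33 ± 0.24 (adjusted p = 0.088). Timp3 and Timp4, inhibitors of such proteases, were the 2 lower members. Of 31 interstitial collagen and matrix genes, 28 were higher with a median of 0.59, and of 22 fibroblast and TGF-beta genes 19 were higher with a median of 0.41. C1qtnf3, a secreted protein of the C1q and TNF related family, was at 6.16, 8.54 and 7.16 in Cmah KO mdx muscle and at 3.89, 3.07 and 4.07 in WT muscle, a difference of 3.61 ± 0.56 (adjusted p = 0.064) with a dim WT mean of 3.68.

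Of 18 genes of the neuromuscular junction and of denervated muscle, 16 were higher in Cmah KO mdx muscle, 7 without overlap, with a median of 0.73, or 0.48 without Cmah KO mdx array 2. Runx1, a transcription factor that denervated and dystrophic fibres express, was at 9.25, 9.61 and 9.48 in Cmah KO mdx muscle and at 7.06, 7.99 and 7.62 in WT muscle, a difference of 1.89 ± 0.33 (adjusted p = 0.086). Of its less bright probe sets, some differed by 1.89 and 2.06 without overlap and others by 0.25, 0.29 and 0.40 with overlap. Chrne, the adult receptor subunit, overlapped with a difference of 0.05.

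**Figure D4:**
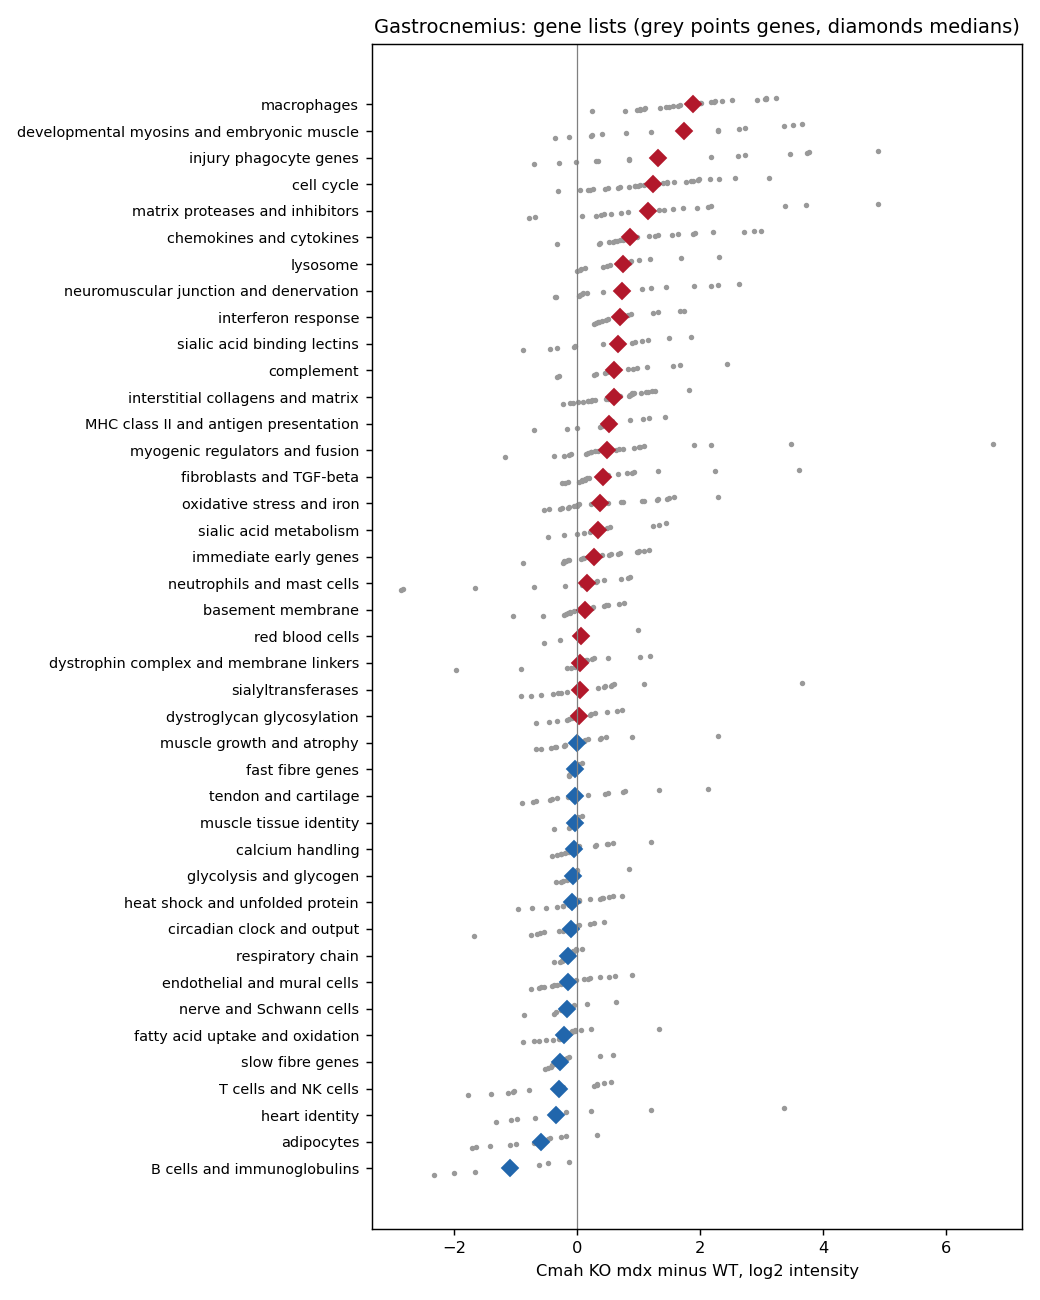
Difference of Cmah KO mdx minus WT gastrocnemius (x axis, log2 intensity) for the genes of 41 lists (rows), 1 probe set per gene. Grey points are genes and diamonds are list medians, red above and blue below 0; macrophage (1.89) and developmental muscle genes (1.74) have the highest medians and B cell genes (-1.10) the lowest.

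Genes of sialic acid, the sugar that Cmah modifies, mostly differed little. The 12 genes of sialic acid metabolism had a median of 0.33 (0.12 without WT array 3 to 0.52 without Cmah KO mdx array 1) and no call, and the 2 largest differences were in Npl, which cleaves free sialic acid, at 1.44 ± 0.53, and Renbp, which epimerises N-acetylglucosamine, at 1.34 ± 0.37. The 20 sialyltransferases had a median of 0.04, which was -0.10 without Cmah KO mdx array 1 and 0.20 without Cmah KO mdx array 2. The exception in size was St8sia2, which builds polysialic acid on the adhesion molecule NCAM of developing cells. It was at 6.10, 7.08 and 6.53 in Cmah KO mdx muscle and at 2.58, 2.65 and 3.54 in WT muscle, a difference of 3.65 ± 0.51 (adjusted p = 0.059) without overlap and with a dim WT mean of 2.92. St8sia2 averaged 5.6 in mdx and 3.5 in Cmah KO muscle. Ncam1 itself, the main carrier of polysialic acid, was at 10.96, 10.66 and 10.78 in Cmah KO mdx muscle and at 8.86, 10.27 and 9.66 in WT muscle, without overlap. Among 12 sialic acid binding lectins, 7 were higher and the median was 0.65 (0.31 without Cmah KO mdx array 3 to 1.08 without WT array 1), with Selp, the adhesion molecule P-selectin, at 1.84 ± 0.39 (adjusted p = 0.16). On this probe set Selp averaged 8.2 in mdx, 7.6 in Cmah KO and 6.3 in WT muscle. A second Selp probe set differed by 0.26 ± 0.61, with overlapping groups. The 14 genes of dystroglycan glycosylation had a median of 0.03, which was -0.04 after quantile normalization and -0.01 with arrays centred on their median and ran from -0.09 to 0.20 with 1 array left out. The 21 genes of the dystrophin complex and membrane linkers, Dmd among them, had a median of 0.05, which was -0.11 without WT array 3 and 0.17 without WT array 2.

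Contractile and metabolic genes of mature fibres differed by small amounts. The 15 fast fibre genes lay between -0.14 and 0.07. Of 26 respiratory chain genes, 25 had the lower mean in Cmah KO mdx muscle, with a median of -0.15, and of 25 genes of fatty acid uptake and oxidation 22 were lower, with a median of -0.21; none passed, and with 1 array left out the second median ran from -0.30 to 0.01, turning without Cmah KO mdx array 1. The adipocyte list had a median of -0.58 and the B cell list one of -1.10, and without WT array 1, the array with the lymphocyte transcripts, these were -0.10 and 0.12. For T cells the median of -0.30 became 0.45 without it. The heart list gave a median of -0.35, which ranged from -1.10 to 0.66 as 1 array was left out. The 14 lists not described above had no call and medians from -0.28 (slow fibre genes) to 0.36 (oxidative stress and iron). With 1 array left out their medians ran from -0.53 to 0.51, and those of the neutrophil, red blood cell, tendon, nerve, slow fibre, muscle growth, glycolysis and heat shock lists changed sign.

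The other mutants were read beside the double mutant in the same 12-array fit. Cmah KO mdx against mdx muscle gave 1 call of 29518 (0.00339%), against Cmah KO muscle 33 (0.112%). The Ctsl probe set was the call against mdx muscle, at -4.04 ± 0.40 (adjusted p = 0.013), with means of 4.00 in Cmah KO mdx, 8.04 in mdx, 4.20 in Cmah KO and 7.69 in WT muscle. Myh3 had means of 10.67 in mdx and 6.78 in Cmah KO muscle, and Cmah KO mdx differed from mdx by 0.33 ± 0.40 and from Cmah KO by 4.23 ± 0.40 (adjusted p = 0.0038). For Cdh4 the means were 4.84 in mdx and 8.36 in Cmah KO muscle, for Dusp26 7.00 and 9.67, and for Pclo 6.18 and 3.65. The comparisons of mdx with WT (5 calls, 0.0169%) and of Cmah KO with WT (0 calls, 332 or 1.12% at an unadjusted p below 0.05) share the WT arrays with the main comparison. Whether the double mutant departed from the sum of the single losses was tested by the non-additive term, which gave 0 calls of 29518 by limma, with 311 (1.05%) at an unadjusted p below 0.05. The macrophage median was 1.89 in Cmah KO mdx, 1.44 in mdx and -0.22 in Cmah KO muscle, each minus WT, and the developmental muscle median was 1.74, 1.40 and -0.15.

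Cmah lies on chromosome 13, and so does Ctsl, but they are not neighbours. Counted from Gdi2, the gene at position 1 among the protein-coding genes there, Cmah lies 199 genes further along and Ctsl 513. Among genes read from 1 probe set each, 16 of 482 on this chromosome (3.32%) were lower in Cmah KO mdx muscle at an unadjusted p below 0.05, against 0.63% to 2.14% on the other chromosomes, while 25 (5.19%) were higher. The gene next to Ctsl in the RefSeq order of protein-coding genes (GRCm38.p6) is Prxl2c, a peroxiredoxin-like gene. It was at 8.22, 7.74 and 7.84 in Cmah KO mdx muscle and at 10.20, 9.81 and 9.54 in WT muscle, a difference of -1.92 ± 0.31 (adjusted p = 0.066), with means of 9.94 in mdx and 8.38 in Cmah KO muscle, and a second, dimmer Prxl2c probe set differed by 0.75. Zfp874a, chosen after its value was seen, lies 42 genes further along and differed by -2.66 ± 0.56 with a dim Cmah KO mdx mean of 3.95, with -2.88 against mdx and 0.14 against Cmah KO muscle. In heart the same probe sets differed by -2.30 for Ctsl, -1.58 for Prxl2c and -2.84 for Zfp874a, none past the threshold. Unc5a, a netrin receptor gene also on chromosome 13, differed by -1.40 ± 0.27 in gastrocnemius (adjusted p = 0.12, Cmah KO mdx mean dim). In heart it differed by 0.05 between means of 4.35 and 4.29, both below the heart 40th percentile of 4.78. Other genes of this chromosome rose in gastrocnemius without overlap and without passing. Tubb2b rose by 2.02 ± 0.33, Rnf180 by 2.10 ± 0.39 from a dim WT mean, and Hk3 by 2.36 ± 0.42. A brighter Hk3 probe set differed by 1.24 ± 0.40.

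In hearts of the same animals, Cmah KO mdx against WT gave 0 calls of 29421 by limma, with 493 (1.68%) at an unadjusted p below 0.05; weighting the arrays by quality gave 12. Cmah KO mdx heart array 2 and Cmah KO heart array 3 had Gapdh 3′ minus 5′ differences of 4.43 and 4.29, against at most 1.60 in the other hearts. The macrophage list, 1.89 in gastrocnemius, had a median of -0.57 in heart, and the developmental muscle list, 1.74 in gastrocnemius, one of 0.02. The change was compared between the tissues over all 24 arrays with the animal as a random block: 21 of 31070 probe sets (0.0676%) differed, 20 (0.0644%) with the higher change in gastrocnemius and 1 (0.00322%), Dusp26, with the lower. Mymx differed by 6.76 in gastrocnemius, and its heart levels were 2.92, 2.90 and 2.19 in Cmah KO mdx against 3.44, 2.84 and 2.04 in WT, all in the dim range. Heart means were also below the heart 40th percentile of 4.78 for Dusp26 (4.67 in Cmah KO mdx, 4.41 in WT) and St8sia2 (3.23 and 3.29). For such genes the heart values cannot show whether the level changed. Myh3 in heart was at 5.54, 5.58 and 4.62 in Cmah KO mdx against 4.90, 4.52 and 4.57 in WT, and the difference between the tissues was 2.93 ± 0.53 (adjusted p = 0.040). Gpnmb and Mmp12 were lower in Cmah KO mdx than in WT heart, by -2.30 and -3.22. For both, WT heart array 3 was high, at 9.98 and 9.93. By the animal numbers in the labels, it comes from the mouse whose muscle gave WT gastrocnemius array 1, the array with lymphocyte transcripts, and whether this bears on the result was not tested. Without WT heart array 3, 5 of the 21 calls remained; Gpnmb, Mmp12, Mymx and Dusp26 were among them, and Myh3 was not (adjusted p = 0.14).

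**Figure D5:**
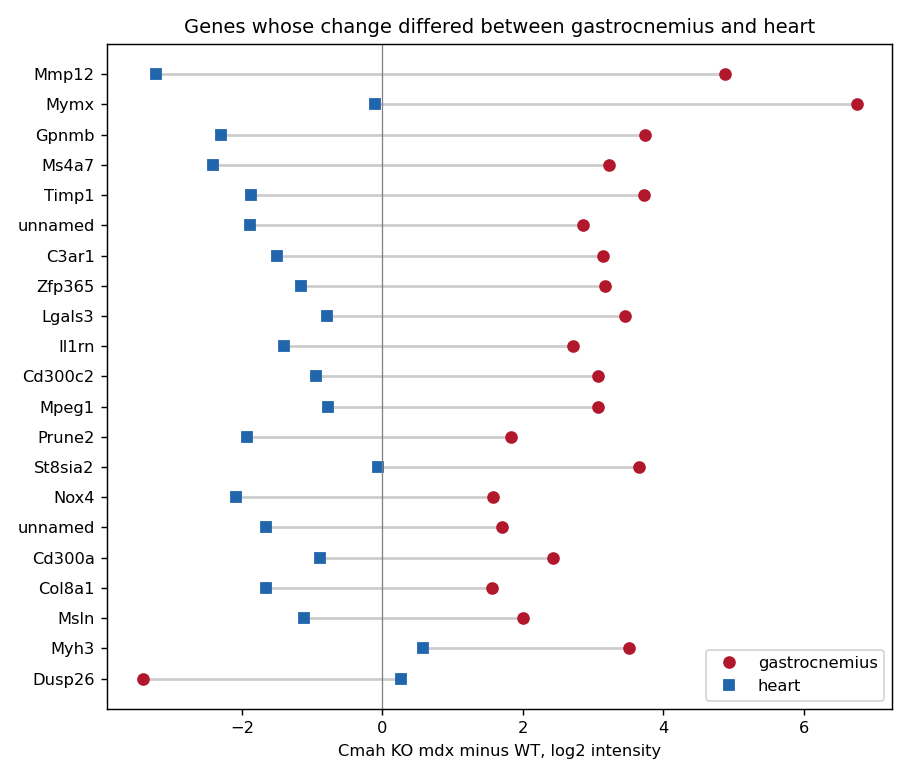
Cmah KO mdx minus WT difference (x axis, log2 intensity) in gastrocnemius (red circles) and heart (blue squares) for the 21 probe sets (rows) whose change differed between the tissues, with the grey line joining the 2 values. The 20 upper rows have the higher change in gastrocnemius, and Dusp26 at the bottom has the lower, with -3.41 in gastrocnemius and 0.26 in heart. The heart means of Dusp26 were dim, at 4.67 in Cmah KO mdx and 4.41 in WT.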

How the data were processed

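The values are the linear intensities that the authors deposited for each probe set and array; the submitters' processing notes name GCOS and RMA, and no version is given in the sources used here. Of 45101 probe sets, 64 controls were set aside, and 34945 had 1 gene symbol in the platform annotation. The log2 of the deposited intensities was analysed in R 4.3.3 with limma 3.58.1 (lmFit and eBayes, two-sided, Benjamini-Hochberg over all probe sets tested). The fit held 4 group means over the 12 gastrocnemius arrays. A probe set was tested if at least 3 of 12 arrays lay above the 40th percentile. Named genes were the targeted genes, those past the threshold, those with the smallest p and, per list, up to 4 members. Not every list member picked in this way is described above. The members and gene lists were chosen with earlier results of these data known. The precision is limited by 3 arrays per group. In gastrocnemius the p-values set each difference against a spread between animals estimated jointly over the 4 groups. Alternatives changed the filter, scaling, variance model, arrays and pairing. The fit was tested on simulated data. The replicate numbers do not pair animals: same-numbered arrays of the 2 groups had deviations that correlated at -0.54, -0.19 and -0.58.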

Additional observations from a re-analysis of the deposited data

Results flagged for a closer look

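The change in gastrocnemius minus the change in heart, each Cmah KO mdx minus WT, passed the threshold for 21 probe sets by limma with the animal as a random block. Among the named genes this difference was 8.10 for Mmp12, 6.86 for Mymx, 6.04 for Gpnmb, 5.64 for Ms4a7, 4.25 for Lgals3, 4.11 for Il1rn (the interleukin-1 receptor antagonist) and 3.84 for Mpeg1 on the log2 scale. It was 3.71 for St8sia2, 2.93 for Myh3 and -3.67 for Dusp26. Several of these values combine a rise in gastrocnemius with a fall in heart. The heart change was -3.22 for Mmp12, -2.30 for Gpnmb, -2.42 for Ms4a7 and -1.41 for Il1rn, each without overlap and none past the threshold. In gastrocnemius the change of these genes was 4.88, 3.74, 3.23 and 2.71. The heart change was -0.79 for Lgals3 and -0.77 for Mpeg1, with overlapping groups. The heart means of Mymx, St8sia2 and Dusp26 were dim in both groups. With the 2 hearts of high Gapdh 3′ minus 5′ difference left out, 276 probe sets passed, all 21 among them. Without WT heart array 3, 5 passed, and all 5 were among the 21.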

How the results depend on the processing

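In gastrocnemius the counts of higher and lower probe sets, 2 and 3 as reported, depended on the settings. They were 9 and 5 with the stricter filter, 1 and 3 with floored values, 16 and 6 with arrays centred on their median, 8 and 4 with an intensity trend, 54 and 11 with array weights, 0 and 0 with only the 6 arrays (1477 at an unadjusted p below 0.05), 30 and 3 with all 24 arrays, 48 and 12 with the Gapdh difference as a covariate, and 24 and 5 with 1 probe set per gene. With the replicate number as a block they were 7 and 4, all 5 reported calls among them; the numbers do not pair the animals. Leaving out 1 array gave 0 to 30 higher and 0 to 6 lower. Without both Cmah KO mdx array 1 and WT array 3, an alternative chosen after the data were seen, they were 9 and 3. Heart gave 4 and 8 with array weights and 0 under the other 10 settings. The tissue difference gave 10 calls with quantile normalization, 1 with no animal block, 276 without 2 deviating hearts, 5 without WT heart array 3 and 24 without WT gastrocnemius array 1, the last 3 also chosen after the data were seen. Among the named genes, signs turned for 3: leaving out 1 array gave -0.69 to 0.13 for Cmah (0.034 without WT array 1), -1.79 to 0.15 for Cd3e and -0.51 to 0.013 for Nnt. For the changes in these counts the cause was not tested, and dim probe sets limit what low levels can show.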
